A study of Sus scrofa domesticus with 2 samples.

Results

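The 10 glycolysis genes GAPDH, ENO1, PGK1, LDHA, ALDOA, TPI1, PKM, HK2, SLC2A1 and PFKFB3 were examined in cultured pig endothelial cells (ECs). The genes were chosen by name. The feature lists named 6 of them, a further 3 (GAPDH, LDHA and ALDOA) were found through their Ensembl identifiers, and SLC2A1, which encodes a glucose transporter, matched no feature and is not analysed here. The 9 genes analysed were among 22804 genes in both libraries.

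Glycolysis splits glucose into pyruvate in the cytosol and yields ATP without oxygen. ECs are known to draw much of their ATP from this pathway, and to turn a large part of the pyruvate into lactate even where oxygen is plentiful. Among the enzymes encoded here, HK2 traps glucose in the cell, PFKFB3 makes the small molecule that switches phosphofructokinase on, ALDOA and TPI1 cleave and interconvert the sugar phosphates, GAPDH, PGK1, ENO1 and PKM carry out later steps that recover ATP and NADH, and LDHA converts pyruvate to lactate.

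The data were 10x Genomics droplet single-cell RNA-seq counts from 1 library of cultured lung ECs and 1 library of cultured aorta ECs of the domestic pig (Sus scrofa domesticus). Cells were released from the vessels of each organ with collagenase and grown in the same serum-containing medium without any added factor, and the pigs that supplied tissue for single-cell work were hybrids of Landrace, Large White and Duroc aged 6 months. Neither library has a replicate, so tissue and library cannot be told apart, no test between them was possible, and every interval given covers counting error only. The number of animals behind each culture is not given in the sources used here.

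The lung library held 5946 cells and 57213236 unique molecular identifiers (UMIs, each standing for 1 captured transcript molecule), and the aorta library held 1185 cells and 46080859 UMIs. After cells were limited to between 200 and 5000 genes detected and to a mitochondrial share below 30%, 5683 lung cells (median 9453 UMIs) and 246 aorta cells (median 4691 UMIs) were kept. The upper limit on genes alone removed 709 aorta cells and 26 lung cells, so the aorta is given both ways, with the limit and without it (955 cells), and for the aorta the cell number stated by the study lies between them. The libraries shared 5 barcode sequences, and the doublet caller marked 3 aorta cells and 4 lung cells.

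Cells were grouped into classes by markers after clustering without the glycolysis genes. In the lung, 4931 cells were endothelial-like and 333 collagen-high. In the aorta, 158 were endothelial-like, 22 collagen-high and 66 EndMT-like (high in contractile genes such as ACTA2, with few endothelial transcripts), and without the upper limit 632 were endothelial-like and 139 collagen-high. The median endothelial-like cell held 9579 UMIs in the lung, 5588 in the aorta with the limit and 55027.5 in the aorta without it. Comparisons of lung with aorta thus set cells of unlike depth side by side, with and without the limit. The endothelial label held in part: the summed level of the 11 endothelial markers in the files was 2598 CPM (UMIs of the gene per 1000000 UMIs of the class) in lung and 2115 CPM in aorta endothelial-like cells, led by PECAM1 at 1597 and 1105 CPM, whereas VWF was at 0.357 CPM in the lung and had 0 UMIs in the aorta, which allows up to 2.29 CPM. KDR, a receptor for vascular endothelial growth factor, was also near 0, at 1.73 CPM in the lung and 0.762 CPM (1 UMI) in the aorta. Immune markers summed to 2.14 CPM in lung endothelial-like cells and had 0 UMIs in those of the aorta.

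Together the 9 genes made up 1.25% of all UMIs in lung endothelial-like cells, or 12451 CPM (95% interval 12420 to 12482). GAPDH alone supplied 56.3% of these UMIs, followed by ENO1 (13.8%), PKM (10.1%) and TPI1 (7.30%). In aorta endothelial-like cells the sum was 7419 CPM (7272 to 7567), and without the upper gene limit it was 7652 CPM. HK2 and PFKFB3, which act at the control points at the head of the pathway, were the least abundant in both tissues. Levels of different genes are set side by side here as captured UMIs only. How fully each gene is captured and annotated was not tested, so the order of genes need not be that of their transcripts. GAPDH, PGK1, LDHA and ENO1 also have processed copies in mammalian genomes that can take or add reads.

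The genes lie apart in the Sscrofa11.1 assembly, except for GAPDH (chr5:64129678-64135194) and TPI1 (chr5:63839473-63842853), which lie in the same region of chromosome 5 on the minus strand. ENO1 is at chr6:69385879-69401664, PGK1 at chrX:62187472-62210321, PKM at chr7:60971807-61032780, LDHA at chr2:40814163-40827284 and ALDOA at chr3:18246036-18260167. HK2 is at chr3:68155656-68231187 and PFKFB3 at chr10:64776315-64859118. The 200 bases before the annotated RefSeq start were searched for ACGTG on both strands, the letters at the core of the element that hypoxia-inducible factors bind. These letters were in 3 of the 9 windows (ENO1, PGK1 and PKM), and in 15.7% of the windows of 19556 protein-coding genes. The ENO1 window held them in 2 places, as did 1.77% of all windows. These 3 windows are printed with PFKFB3, whose level parted most between the classes and whose window held none. Each reads 5′ to 3′ on the strand of its gene and ends at the base before the start, with capitals for every stretch that matches on either strand. A match is a description of the letters only.
ENO1, chr6:69401665-69401864, minus strand: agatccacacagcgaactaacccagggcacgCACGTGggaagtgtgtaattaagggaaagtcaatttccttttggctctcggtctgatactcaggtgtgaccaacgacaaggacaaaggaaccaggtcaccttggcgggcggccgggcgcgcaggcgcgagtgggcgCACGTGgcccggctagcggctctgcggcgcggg
PGK1, chrX:62187272-62187471, plus strand: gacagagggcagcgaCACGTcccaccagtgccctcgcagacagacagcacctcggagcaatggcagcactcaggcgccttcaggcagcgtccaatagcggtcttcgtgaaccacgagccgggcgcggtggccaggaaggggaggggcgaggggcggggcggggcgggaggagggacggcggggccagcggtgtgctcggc
PKM, chr7:60971607-60971806, plus strand: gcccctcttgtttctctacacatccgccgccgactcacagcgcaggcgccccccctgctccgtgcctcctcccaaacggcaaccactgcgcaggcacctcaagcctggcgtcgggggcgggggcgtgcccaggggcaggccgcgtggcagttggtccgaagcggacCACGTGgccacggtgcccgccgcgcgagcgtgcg
PFKFB3, chr10:64859119-64859318, minus strand: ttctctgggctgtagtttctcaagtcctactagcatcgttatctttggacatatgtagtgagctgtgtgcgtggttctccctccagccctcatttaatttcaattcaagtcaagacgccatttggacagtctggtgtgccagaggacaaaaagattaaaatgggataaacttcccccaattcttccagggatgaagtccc

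**Figure D1:**
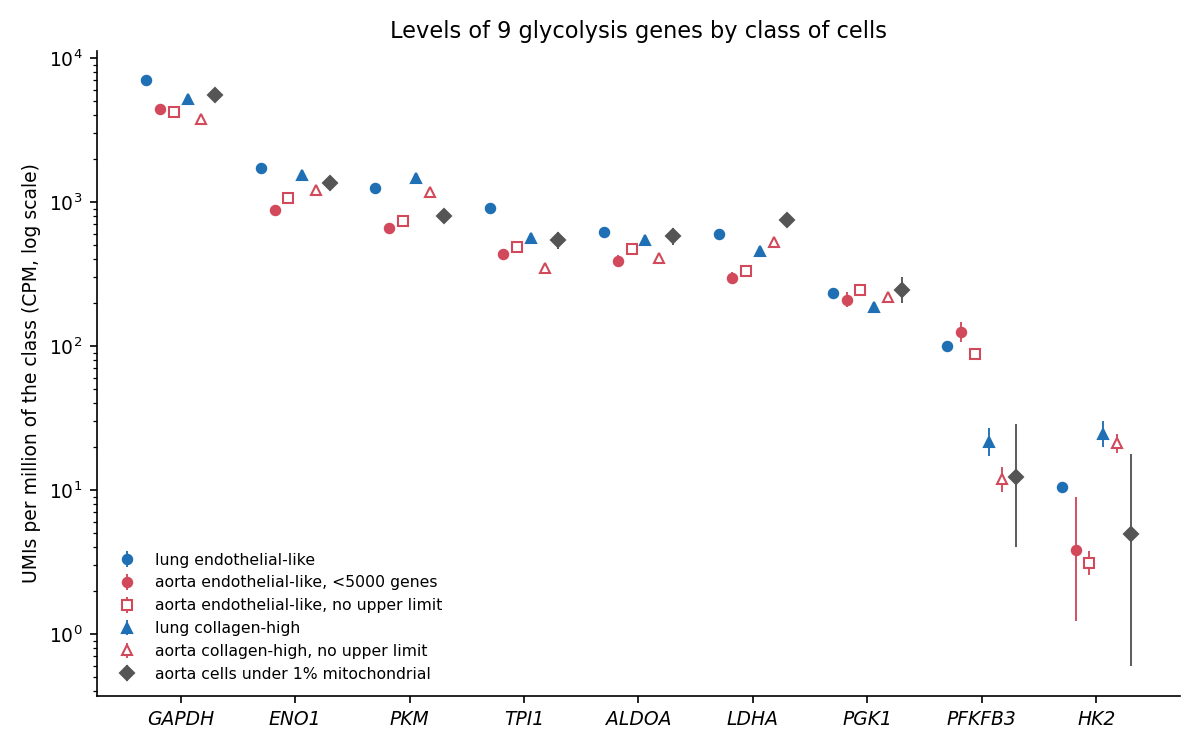
The plot gives the level of each of the 9 glycolysis genes in CPM (vertical log axis) for 6 groups of cells, with points for the level of the summed UMIs and bars for the 95% Poisson interval of counting error; blue marks the lung, red the aorta and grey the aorta cells under 1% mitochondrial UMIs. GAPDH is highest throughout, at 7006 CPM in lung endothelial-like cells, and PFKFB3 spreads from 100.2 CPM in lung endothelial-like cells to 11.9 CPM in aorta collagen-high cells without the upper limit.

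Lung endothelial-like cells held more transcripts of the 9 genes, summed, than aorta endothelial-like cells, by 1.68 times (interval 1.65 to 1.71), and by 1.63 times without the upper gene limit. HK2, ALDOA, TPI1, GAPDH, ENO1, PKM and LDHA were higher in the lung with and without the limit. PGK1 was nearly level between the tissues, and the directions of PGK1 and PFKFB3 turned with the gene limit.

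At the head of the pathway, HK2 was at 10.5 CPM (530 UMIs) in lung and 3.81 CPM (5 UMIs) in aorta endothelial-like cells, 2.76 times higher in the lung (1.18 to 8.53). Without the upper limit the aorta level was 3.12 CPM (110 UMIs) and the ratio 3.35 (2.73 to 4.16). HK2 was thus the gene with the largest ratio of the 9, although it stayed below 50 CPM, the level from which a gene was counted as past 2-fold or not. PFKFB3 was at 100.2 CPM in the lung and 126 CPM in the aorta, a ratio of 0.797 (0.682 to 0.936). Without the limit the aorta level was 88.0 CPM and the ratio 1.13 (1.08 to 1.19), so no direction between the tissues can be given for it.

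Of the enzymes that handle the sugar phosphates, TPI1 was at 908 CPM in the lung and 435 CPM in the aorta, 2.09 times higher (1.92 to 2.27). ALDOA was at 616 and 390 CPM, a ratio of 1.58 (1.45 to 1.73). Both were higher in the lung with and without the limit, without which the ratios were 1.86 for TPI1 and 1.31 for ALDOA. GAPDH, the most abundant of the 9, was at 7006 CPM (6983 to 7029) in the lung and 4424 CPM (4311 to 4539) in the aorta, 1.58 times higher. PGK1, which encodes the next enzyme and makes the first ATP of the pathway, was at 232 CPM (228 to 237) and 210 CPM (186 to 236), with intervals that overlapped and a ratio of 1.11 (0.983 to 1.25). Without the limit that ratio was 0.951 (0.925 to 0.978).

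At the end of the pathway the 3 genes differed by similar amounts. ENO1 was at 1719 CPM in the lung and 877 CPM in the aorta, a ratio of 1.96 (1.85 to 2.08). PKM, which makes pyruvate, was at 1259 and 656 CPM, a ratio of 1.92 (1.79 to 2.05). LDHA was at 599 and 297 CPM, a ratio of 2.01 (1.82 to 2.23). Without the limit the ratios were 1.60 for ENO1, 1.69 for PKM and 1.79 for LDHA, each lower than with it and still above 1.

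TPI1 and LDHA were thus the 2 genes past 2-fold higher, of the 8 that reached 50 CPM, and none was past 2-fold lower. Among all 3335 genes at that level, 3.09% were past 2-fold higher in the lung and 5.46% lower. Neither TPI1 nor LDHA was past it without the limit, where none of the 8 was past it in either direction and the shares of all genes were 1.11% and 3.15%. Their ratios lay at the 97.6th and 97.0th percentile of all genes with the limit and at the 98.7th and 98.4th without it. Among endothelial-like cells with 1% or more mitochondrial UMIs, 3 members (ENO1 at 2.14, LDHA at 2.24 and TPI1 at 2.21) were past 2-fold higher and none lower, beside 4.97% and 6.51% of all genes. The median ratio over the 9 genes was 1.92, against 1.03 over all genes at the level tested. For 7 cytosolic reference genes such as ACTB and EEF1A1 the median was 1.02, with the ratios of single genes ranging from 0.766 to 1.31.

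**Figure D2:**
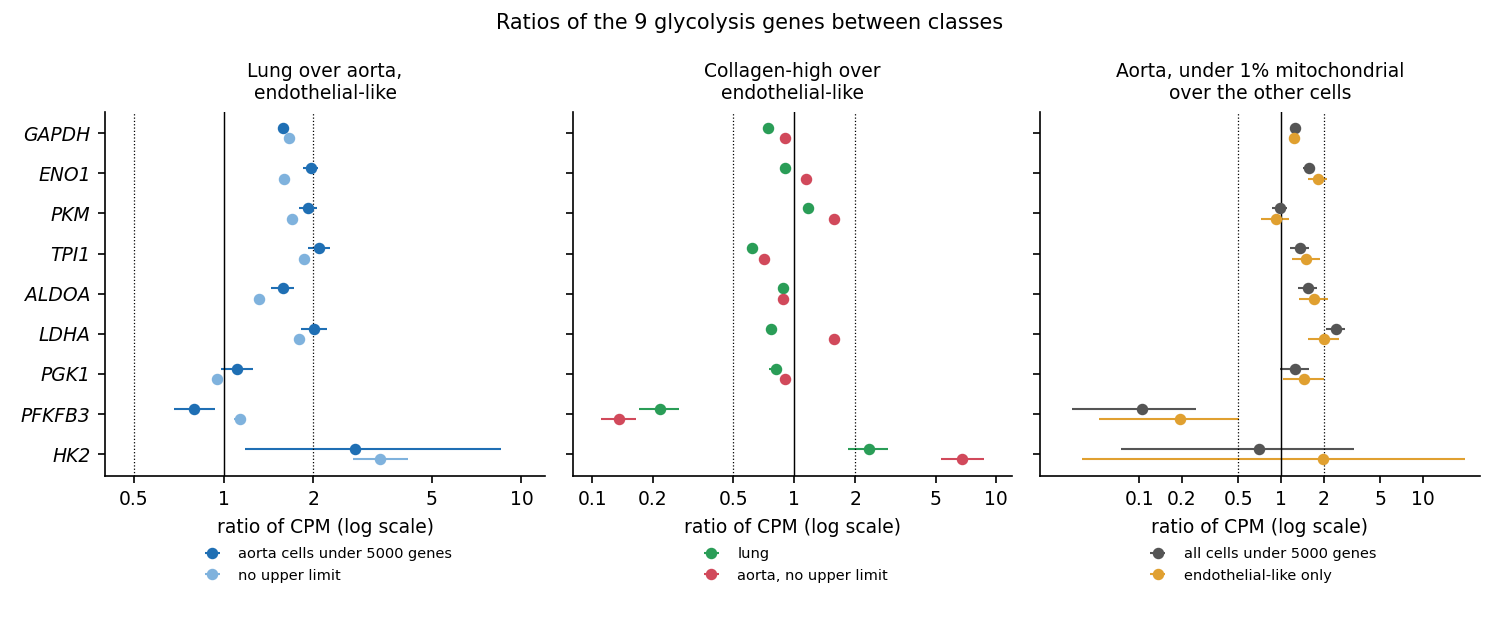
Each point is the ratio of CPM between 2 groups for 1 of the 9 genes (horizontal log axis), with the 95% interval of counting error as a bar, a solid line at 1 and dotted lines at 2-fold; the panels show lung over aorta endothelial-like cells, collagen-high over endothelial-like cells, and aorta cells under 1% mitochondrial UMIs over the others. TPI1 and LDHA lie just past 2 in the first panel, while PFKFB3 lies far to the left in the other 2, at 0.216 in the lung and 0.105 in the aorta cells under 1%.

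The same contrast was seen between subgroups of cells. The lung endothelial-like cells fell into 7 clusters and those of the aorta, without the upper limit, into 4. All 7 lung clusters lay above all 4 aorta clusters for 5 of the 8 tested genes and for HK2, and no gene had all lung clusters below. Among all 3849 genes tested in this way, 9.51% had every lung cluster above and 12.7% every one below. GAPDH ranged from 6506 to 7496 CPM over the lung clusters and from 3996 to 5032 CPM over those of the aorta. LDHA ranged from 508 to 704 CPM and from 313 to 463 CPM. The other 4 without overlap were ENO1 (lowest in the lung 1603 CPM, highest in the aorta 1281 CPM), TPI1 (850 and 549 CPM), PKM (1195 and 807 CPM) and HK2 (8.18 and 4.11 CPM). ALDOA (527 and 535 CPM), PGK1 and PFKFB3 overlapped. Clusters share their library and are no replicates of the tissue.

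The glycolysis genes outside the 10 that reached 50 CPM were also higher in the lung. Among all 3335 genes at that level, 52.6% had a ratio above 1, 3.09% were past 2-fold higher and 5.46% lower. Of 27 other glycolysis genes listed, 26 were in the files and 7 reached 50 CPM in either group. All 7 were higher in lung than in aorta endothelial-like cells, with a median ratio of 1.45, and 1 was past 2-fold. That 1 was SLC16A3, a lactate exporter, at 182 CPM in the lung and 57.2 CPM in the aorta (ratio 3.19, 2.54 to 4.05; 2.70 without the limit). HK1, the more abundant hexokinase, was at 348 and 249 CPM (ratio 1.40), so that in both tissues it exceeded HK2. GPI, the isomerase that acts before phosphofructokinase, had a ratio of 1.67, the phosphofructokinase PFKL 1.96, and LDHB, the other main lactate dehydrogenase subunit, 1.45. In the pentose phosphate branch all 3 genes tested were higher in the lung, and TALDO1 was past 2-fold with the limit (2.10) and not without it (1.5). Among 6 genes that govern pyruvate entry into mitochondria, PDK4, a kinase that holds pyruvate dehydrogenase off, was the gene past 2-fold, lower in the lung (13.0 against 64.8 CPM, ratio 0.201).

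Genes of the hypoxia list pointed both ways. Of 10 tested, 5 were higher and 5 lower in the lung, with a median ratio of 1.08. ADM, a vasodilator peptide gene induced by low oxygen, was at 133 CPM in lung and 21.4 CPM in aorta endothelial-like cells (ratio 6.24, 4.32 to 9.40). ARNT, the partner of the hypoxia-inducible factors, was lower at 62.0 against 173 CPM (ratio 0.358). HIF1A itself was at 497 and 650 CPM (ratio 0.765).

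Collagen-high cells carried a different mix of the same enzymes. These cells, which expressed COL1A1 and COL1A2 at 11215 CPM summed in the lung and 11536 CPM in the aorta, had more HK2 and PKM and far less PFKFB3 than the endothelial-like cells of their own culture. The sum of the 9 genes was 10035 CPM in lung collagen-high cells, a ratio of 0.806 (0.798 to 0.814) to the endothelial-like cells. In the aorta it was 8867 CPM, a ratio of 1.20 (1.14 to 1.26), and without the upper limit 7723 CPM, a ratio of 1.01. The collagen-high cells held few endothelial transcripts, with the marker sum at 277 CPM in the lung and 142 CPM in the aorta.

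PFKFB3 was at 21.6 CPM (82 UMIs) in lung collagen-high cells, against 100.2 CPM (5050 UMIs) in endothelial-like cells, 4.63 times lower (ratio 0.216, 0.171 to 0.268). In the aorta it was at 24.4 CPM (5 UMIs) against 126 CPM (165 UMIs), 5.16 times lower (ratio 0.194, 0.0622 to 0.462). Without the limit it was at 11.9 against 88.0 CPM, 7.37 times lower (ratio 0.136, 0.110 to 0.165). PFKFB3 was therefore the gene that set the classes apart most clearly, in the same direction in both cultures and in both lung collagen-high clusters, where it was at 25.1 and 12.1 CPM. HK2 went the other way, at 24.5 CPM in lung collagen-high cells against 10.5 CPM (ratio 2.33, 1.85 to 2.91). In the aorta without the limit HK2 was at 21.1 against 3.12 CPM (ratio 6.77, 5.32 to 8.66), and with the limit it rested on 4 and 5 UMIs.

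Of the abundant genes, PKM was higher in the collagen-high cells of both cultures with and without the limit. It was at 1480 CPM against 1259 CPM in the lung (ratio 1.18, 1.14 to 1.21) and at 1562 CPM against 656 CPM in the aorta (ratio 2.38, 2.09 to 2.71; 1.58 without the limit). Its share of the UMIs of the 9 genes was 14.7% in lung collagen-high and 10.1% in lung endothelial-like cells. TPI1 was lower in the collagen-high cells, at 561 against 908 CPM in the lung (ratio 0.618) and at 303 against 435 CPM in the aorta (ratio 0.696), and PGK1 had ratios of 0.808 in the lung and 0.722 in the aorta, the latter with an interval that includes 1 (0.481 to 1.05). LDHA differed in direction between the cultures, with a ratio of 0.767 in the lung and of 1.44 in the aorta (1.58 without the limit). GAPDH was at 5211 CPM in lung collagen-high cells (ratio 0.744), ENO1 had a ratio of 0.90 and ALDOA of 0.880. In the aorta GAPDH was at 4963 CPM (ratio 1.12), which turned to 0.901 without the limit.

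In the lung, PFKFB3 was the only tested gene of the 8 past 2-fold lower and none was past it higher, where 10.6% of all genes were lower and 6.16% higher. In the aorta PFKFB3 was past it lower and PKM higher, beside 14.5% and 13.1% of all genes. Without the limit PFKFB3 alone was past it, beside 12.6% lower and 7.74% higher of all genes. The median ratio over the 9 genes was 0.808 in the lung and 1.12 in the aorta, beside 0.979 and 1.05 over all genes.

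Among the other glycolysis genes, 7 were tested in the lung. GPI (ratio 0.448) and SLC16A3 (63.9 against 182 CPM, ratio 0.351) were past 2-fold lower in the collagen-high cells, beside 10.6% of all genes. In the aorta without the limit 8 were tested. The same exporter SLC16A3 was lower (7.12 against 67.2 CPM, ratio 0.106) with GPI (0.435), while SLC16A1, another lactate carrier, was higher (62.3 against 23.4 CPM, ratio 2.67) with the phosphofructokinase PFKP (126 against 54.1 CPM, ratio 2.33). Among all genes in this aorta comparison, 12.6% were past 2-fold lower and 7.74% higher. In the lung PFKP was also higher, at 121 against 72.8 CPM (ratio 1.66). The hypoxia list was split, with 5 of 11 tested genes higher and 6 lower in the lung, and likewise in the aorta without the limit. In the lung 2 were past 2-fold higher and 2 lower, beside 6.16% and 10.6% of all genes. In the aorta without the limit 3 were past it higher and 3 lower, beside 7.74% and 12.6%. Among them HIF1A was lower in the collagen-high cells of both cultures (ratios 0.381 and 0.300), and VEGFA was higher (2.08 and 2.79).

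Of the 246 aorta cells kept, 110 (44.7%) had under 1% mitochondrial UMIs, against 39 of 5683 (0.686%) in the lung. These aorta cells were shallow, with a median of 3250.5 UMIs against 8442 in the rest, and 54 were endothelial-like, 55 EndMT-like and 1 collagen-high. Their endothelial markers summed to 256 CPM against 1915 CPM in the other aorta cells, and their contractile markers to 7353 against 3057 CPM. Cell class, depth and mitochondrial share thus moved together, and their part in the differences was not tested, except that values within the endothelial-like class are given as well.

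The sum of the 9 glycolysis genes was 9826 CPM (9524 to 10136) in the cells under 1% and 7507 CPM in the rest, a ratio of 1.31 (1.26 to 1.36; 1.28 without the limit). With the mitochondrial UMIs left out of the totals, the sums lay closer, at 9841 and 8235 CPM. The ratios that follow keep these UMIs in the totals, which by itself favours the cells under 1%. LDHA was at 756 CPM (307 UMIs) against 314 CPM (445 UMIs), the largest ratio at 2.41 (2.08 to 2.80; 2.05 without the limit). ENO1 was at 1347 against 860.3 CPM (ratio 1.57), and ALDOA at 576 against 374 CPM (ratio 1.54). The abundant enzymes of the middle and end of the pathway were thus held or higher in these cells, with GAPDH at 5543 CPM (ratio 1.25), TPI1 at 544 CPM (1.35), PGK1 at 246 CPM (1.25, 0.984 to 1.57) and PKM at 796 CPM (0.976, 0.860 to 1.11). PFKFB3 had 5 UMIs (12.3 CPM) against 166 (117 CPM), 9.50 times lower (ratio 0.105, 0.0337 to 0.251). HK2 had 2 UMIs against 10, too few for a direction (ratio 0.699, 0.0745 to 3.28). LDHA was the gene past 2-fold higher and PFKFB3 the gene past it lower of the 8 tested, beside 16.4% and 31.3% of all genes, and without the limit the same genes were past it beside 4.65% and 28.2%.

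Within the endothelial-like class alone, cells under 1% held the 9 genes at 9428 CPM and the others at 7162 CPM, a ratio of 1.32 (1.24 to 1.39). This class name depends on the gene limit: with it 54 of the 110 cells under 1% were endothelial-like, and without it 4 were endothelial-like, 53 EndMT-like and 53 unnamed, so the values within the class are given for the clusters with the limit only. With the mitochondrial UMIs left out of the totals, the sums within the class were 9444 and 7895 CPM. LDHA was at 531 against 267 CPM (ratio 1.99, 1.53 to 2.55) and ENO1 at 1453 against 803 CPM (ratio 1.81, 1.55 to 2.10). PFKFB3 had 4 UMIs (26.9 CPM) against 161 (138 CPM), a ratio of 0.194 (0.0523 to 0.507). It was the gene past 2-fold lower and none was past it higher, beside 25.5% and 17.8% of all genes. Even in this class the cells under 1% had fewer endothelial transcripts, with PECAM1 at 229 against 1217 CPM. The EndMT-like cells under 1% differed from the endothelial-like cells under 1% mainly in LDHA, at 877 against 531 CPM (ratio 1.65, 1.27 to 2.16), and PKM, at 900.2 against 605 CPM (ratio 1.49, 1.16 to 1.92), while their sums were close (ratio 1.06, 0.996 to 1.14). Over all 66 EndMT-like cells LDHA reached 888 CPM, its highest level in any class of either culture, and PFKFB3 had 1 UMI.

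SLC16A3 was low together with PFKFB3, with 2 UMIs in the aorta cells under 1% and 74 in the others (ratio of CPM 0.0945). So were P4HA1 (3 against 152 UMIs, ratio 0.0690) and FOXO1 (3 against 87 UMIs, ratio 0.121). The cells under 1% held fewer UMIs in all (405950 against 1419193), and counts of 2 or 3 UMIs leave these ratios a wide counting error. HIF1A was at 187 against 588 CPM (ratio 0.318), and 5 of the 10 hypoxia genes tested were past 2-fold lower and none higher, in a comparison where 31.3% of all genes were past it lower. MPC2, a subunit of the mitochondrial pyruvate carrier, was at 165 against 57.1 CPM (ratio 2.89), and TALDO1 at 1274 against 478 CPM (ratio 2.66). Each was the 1 gene of its list past 2-fold higher (5 tested for pyruvate entry, 4 for the pentose phosphate branch), beside 16.4% of all genes. In the pyruvate list 1 other gene was past it lower (ratio 0.128). Without the limit no tested gene of either list was past it higher, with ratios of at most 1.71 and 1.70. The 7 cytosolic reference genes had a median ratio of 1.02 with a range of 0.623 to 1.93, and without the limit their median was 1.28, the same as the summed ratio of the 9 genes there.

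**Figure D3:**
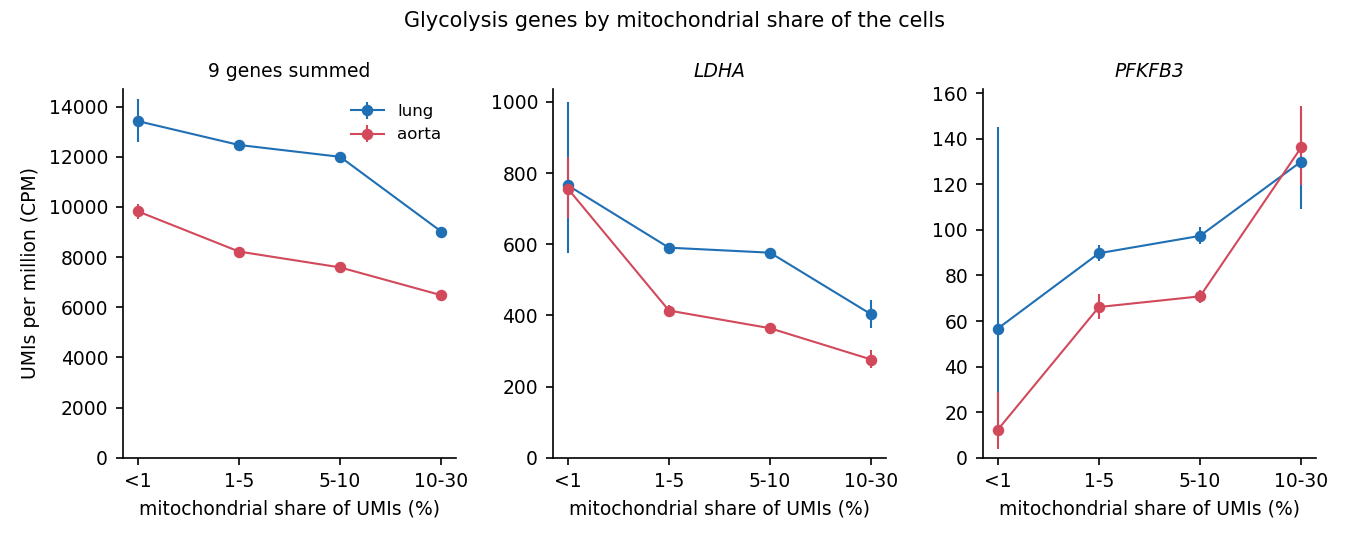
The plot gives the CPM of the 9 genes summed, of LDHA and of PFKFB3 (vertical axes from 0) in 4 ranges of the mitochondrial share of UMIs, for lung (blue) and aorta (red) cells without an upper gene limit, with 95% Poisson intervals as bars. The points of the sum and of LDHA are lower from left to right in both cultures, and those of PFKFB3 higher, from 12.3 to 136 CPM in the aorta. In the lung under 1%, PFKFB3 rests on 4 UMIs and LDHA on 54.

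Over all cells without the upper gene limit, the sum of the 9 genes was lower in each successive range of mitochondrial share, in both cultures. In the aorta it was 9826, 8224, 7592 and 6483 CPM at under 1%, 1 to 5%, 5 to 10% and 10 to 30% mitochondrial UMIs. In the lung it was 13424, 12472, 12000.2 and 9021 CPM over the same ranges, of which the lowest held 39 cells. With the mitochondrial UMIs left out of the total the order was kept, at 9841, 8617, 8173 and 7448 CPM in the aorta and 13474, 13040, 12855 and 10470 CPM in the lung. PFKFB3 ran the opposite way, at 12.3, 66.2, 70.8 and 136 CPM in the aorta and at 56.7, 89.8, 97.4 and 130 CPM in the lung. Its lung value under 1% rests on 4 UMIs (15.4 to 145 CPM), so that step has no clear direction. In the aorta its intervals at 1 to 5% and 5 to 10% overlapped (60.7 to 72.0 and 68.1 to 73.7 CPM). LDHA followed the sum, at 756, 414, 364 and 276 CPM in the aorta and 765, 590, 576 and 403 CPM in the lung. Its lung value under 1% rests on 54 UMIs, with an interval (575 to 999 CPM) that covers the next value. The ranges also differ in cell class and depth, whose part was not tested.

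The cell cycle phase made little difference to the sum in endothelial-like cells. It was 12840, 12403 and 11984 CPM in cells assigned to G1, S and G2M in the lung, and 7742, 7669 and 7459 CPM in the aorta without the limit. PFKFB3 stood out with its lowest level in S phase in both cultures, at 115, 69.8 and 99.7 CPM over G1, S and G2M in the lung and at 99.5, 63.0 and 92.4 CPM in the aorta. The ratio of S to G1 was 0.605 in the lung and 0.633 in the aorta.

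**Figure D4:**
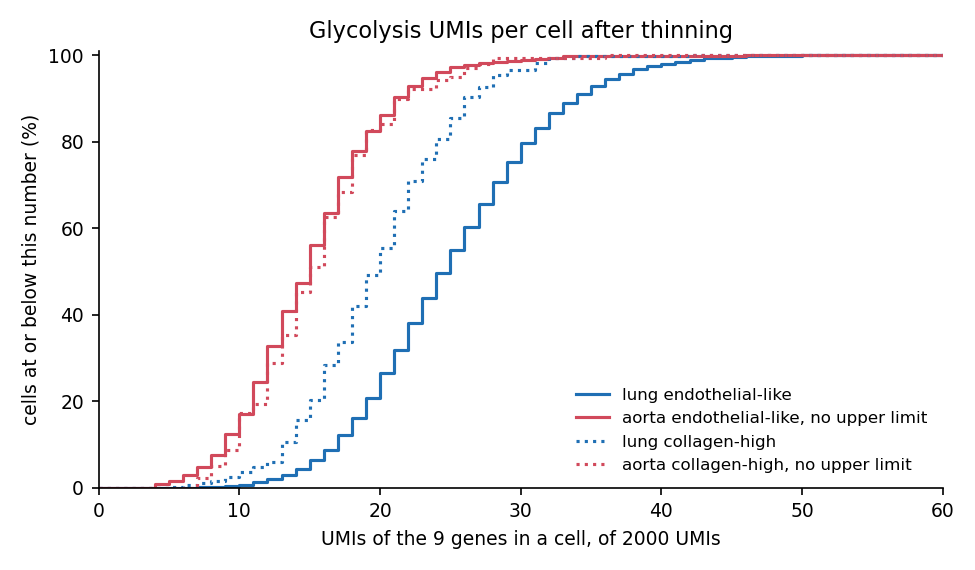
Each step line gives the percentage of cells (vertical axis) that hold at most a given number of UMIs of the 9 genes (horizontal axis) after each cell was thinned to 2000 UMIs, for endothelial-like (solid) and collagen-high (dotted) cells of the lung (blue) and of the aorta without the upper limit (red). The lung endothelial-like line lies to the right of the others, with its median at 25 UMIs against 15 for the aorta endothelial-like cells.

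In single cells thinned to 2000 UMIs each, which removes the difference in depth, the median lung endothelial-like cell held 25 UMIs of the 9 genes (5th to 95th percentile 15 to 37, 4931 cells). The median aorta endothelial-like cell without the limit held 15 (8 to 24, 630 cells). The median aorta cell under 1% mitochondrial UMIs held 20 (11 to 30, 76 cells, with 34 too shallow left out) and the other aorta cells 14 (6 to 28, 118 cells). PFKFB3 had a UMI in 17.1% of thinned lung endothelial-like cells (54.9% unthinned, median 9579 UMIs) and in 3.33% of thinned lung collagen-high cells (17.7% unthinned, median 10698 UMIs). In the aorta without the limit the thinned shares were 16.5% and 3.6%. Free RNA in droplets can add UMIs to a cell and was not measured here. Whether the shares in collagen-high cells lie above such background was not tested.

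Across 20 clusters (12 of the lung and 8 of the aorta without the limit), TPI1 had the highest correlation with the mean of the 9 genes (Pearson r = 0.95) and PGK1 the lowest (0.256), with no value for HK2, which stayed below 50 CPM. Within the libraries this order held only for the first place of TPI1 in the lung. TPI1 was at 0.963 over the lung clusters alone and at 0.587 over the aorta clusters alone, and PGK1 was at 0.706 and 0.882, the highest of the aorta. GAPDH (0.872 over all clusters) was at 0.834 and 0.331, and PKM (0.675 over all) at 0.226, the lowest of the lung, and 0.0231. LDHA (0.717 over all) was at 0.941 and 0.462, and PFKFB3 (0.481 over all) at 0.672 and -0.0285, the lowest of the aorta. ENO1 was at 0.768 and 0.874 and ALDOA at 0.742 and 0.849, so these genes followed the mean within both cultures. The genes outside the 9 most like that mean, of 4972 ranked, were S100A5 (r = 0.874), MIF (0.857), ENSSSCG00000035762 (0.839), ADM (0.832) and GPI (0.830), which encodes a glycolytic enzyme itself. For ADM the value within the 8 aorta clusters alone was -0.483. The clusters share 2 libraries and their depths, so the values describe these cultures and carry no test.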

How the data were processed

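UMI counts per gene and cell were deposited as a matrix for each library. The authors made these counts from 10x Genomics 3' reads with Cell Ranger 3.0.2 against Sscrofa11.1, and how they treated reads of near-identical copies is not given in the sources used here. Cells were kept by the limits in the study's methods, which ask for a gene number above 200 and below 5000 and a share below 30% for 12 mitochondrial genes, ND1 left out. Each library was clustered with Seurat 5.3.0 (R 4.3.3) on 2000 variable genes less the markers and the gene lists, 20 principal components and resolution 1. Clusters were named from marker lists, and doublets were called with Scrublet (scanpy 1.11.5) but not removed. UMIs were summed per class and divided by all UMIs of the class (CPM), with exact Poisson 95% intervals, and ratios have exact conditional intervals (Python 3.11.15, numpy 2.4.6, scipy 1.17.1). A gene was tested for a 2-fold difference at 50 CPM or more in either group. With 1 library per tissue no p-value was computed. Ensembl identifiers were paired with symbols for 14983 genes by the files and for 1051 by a gene name table, and 6770 stayed under their identifier. Gene places and sequences are from RefSeq for Sscrofa11.1. The genes and lists were chosen with earlier results of these data known. Genes named are all listed members found, list genes by level or 2-fold difference, marker genes, and the 5 genes most like the members over clusters. Ratios, intervals and calls were tested on simulated Poisson counts. These hold no spread between cells beyond counting error, so the check covers the calculation only. The alternatives tried were other limits on genes and mitochondrial share, other clustering settings, other totals, thinning, and other thresholds on level and fold.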

Additional observations from a re-analysis of the deposited data

How the results depend on the processing

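With 1 library per tissue no replicate could be left out. No paired analysis was possible because each tissue has 1 library and no test was made. The summed ratio of the 9 genes stayed on its side of 1 under every alternative run, at 1.60 to 1.74 for lung over aorta endothelial-like cells, 0.786 to 0.825 for collagen-high over endothelial-like cells in the lung, 1.01 to 1.23 in the aorta, and 1.20 to 1.33 for aorta cells under 1% mitochondrial UMIs. Dropping the upper limit on genes turned 4 ratios of these comparisons across 1. For lung over aorta endothelial-like cells these were PFKFB3 (1.13) and PGK1 (0.951), and for aorta collagen-high over endothelial-like cells GAPDH (0.901) and ALDOA (0.876). The intervals of PGK1 and ALDOA with the limit included 1. Other alternatives took ALDOA, ENO1 and PGK1 of the aorta collagen-high cells, HK2 of lung over aorta in thinned cells (0 aorta UMIs) and PKM of the aorta cells under 1% across 1. The cause was not tested. The counts of genes past 2-fold are small and changed readily. For lung over aorta endothelial-like cells, 2 genes past it higher became 0 with no upper limit, 1 with mitochondrial share under 15%, 30 principal components, mitochondrial genes taken out of the total, those and ribosomal protein genes taken out, the mean over cells, or thinned cells, 6 at a fold of 1.5, and 0 at a fold of 3. For aorta collagen-high cells 1 became 0 with no upper limit, with mitochondrial share under 15% and at a fold of 3, and 2 with genes from 10 CPM. For lung collagen-high cells the lower count of 1 became 2 at a fold of 1.5 and the higher count of 0 became 1 with genes from 10 CPM. For aorta cells under 1% the higher count of 1 became 0 by the mean over cells and at a fold of 3, and 3 at a fold of 1.5. The cause was not tested. PFKFB3 was lower in collagen-high cells of the lung at 0.147 to 0.241 and in aorta cells under 1% at 0.0953 to 0.194 under all alternatives run. In the aorta collagen-high cells thinning left 16 cells with no PFKFB3 UMI, and with 30 principal components no such class was found and the comparison was not run. Depth limits HK2 and PFKFB3 in the aorta most, where several groups hold 5 UMIs or fewer.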

Other observations

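The 88 immune-like cells of the lung culture, which were grouped by markers such as C1QB and PTPRC, held the lowest sum of the 9 glycolysis genes of any lung class, at 7465 CPM. These cells also carried endothelial markers at 1629 CPM summed, beside 1177 CPM of immune markers, against 2598 CPM of endothelial markers in endothelial-like cells, and the part of these endothelial transcripts in the values was not tested. Their GAPDH was at 3908 CPM, ENO1 at 1004 CPM and PKM at 873 CPM, below the levels of 7006, 1719 and 1259 CPM in lung endothelial-like cells. ALDOA differed less, at 558 CPM (510.5 to 609) against 616 CPM. PFKFB3 was at 56.7 CPM (42.2 to 74.6), between the collagen-high and the endothelial-like cells.

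The 200 lung endothelial-like cells of the cluster whose leading genes included OASL, CXCL11 and CXCL10, which respond to interferons, and IFNB1, which encodes interferon beta, had the highest TPI1, LDHA and HK2 of the 7 lung endothelial-like clusters, at 1070 CPM, 704 CPM and 18.1 CPM. HK2 in the other 6 lay between 8.18 and 10.99 CPM. The cluster was singled out after its values were seen, and it rests on 1 library.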
